A study of Danio rerio with 8 samples.

Results

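Interferon pathway genes were examined in whole zebrafish embryos on 1-colour (Cy3) Agilent arrays. The set held 10 genes and 16 of the 39162 probes. It was made up of the interferon regulatory factors irf1b, irf7, irf9 and irf10, the signal transducers stat1a and stat1b, and the interferon-stimulated genes isg15, mxa, mxb and mxc. A probe belonged to the set when the current symbol of its transcript accession was that of a listed gene. Probes whose accession gave no symbol could not enter the set or the lists below, and 63.1% of probes had a symbol. irf10 entered because its fall with the mimic stood out in earlier results of these arrays, so its values are given as a description without a test. The other 9 genes (14 probes) were taken as the surrounding pathway.

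All embryos were AB strain, were injected at the 1-cell stage with 1.5 ng of a morpholino and 0.25 ng of a microRNA mimic, and were collected at 24 h post fertilisation (hpf) in pools of 50. MO-Tbx5a+miR-19a embryos (3 arrays) received the morpholino against the translational start of tbx5a with the miR-19a mimic, MO-Tbx5a embryos (3 arrays) the same morpholino with the control mimic, and MO-Ct embryos (2 arrays) the control morpholino with the control mimic. Every group therefore carried an antisense oligonucleotide and a duplex RNA, and with no uninjected group a response to the injection itself cannot be told apart from the level of uninjected embryos. For MO-Tbx5a+miR-19a the treatment label gives MO-19a, a morpholino, where titles and design give the mimic, and the design was followed. The labels also give this group another labelling kit, RNA amount and version of the scan software. These and the group cannot be told apart in its comparisons. The deposited scans of this group did not match its own value columns best, as given under the processing. The study calls the arrays of a group biological replicates. A translational block leaves the targeted RNA in place, and protein was not measured.

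Interferons are secreted proteins that warn cells of viral nucleic acid. Sensors of double-stranded RNA act through adaptors on the factors Irf3 and Irf7, which switch on interferon genes. Interferon bound to its receptors activates Jak kinases and the Stat proteins, which with Irf9 turn on a large set of antiviral genes, among them isg15 and the mx genes. Injected morpholinos and duplex RNA have been described as triggers of innate immune responses in zebrafish embryos, and the question here was how these genes stood in the 3 groups.

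The deposited values were log2 values with medians of 7.77 to 7.80 per array. Called changed here means a fold change above 1.3 with p and Benjamini-Hochberg adjusted p under 0.05 in a limma model over all probes and all 8 arrays. Probes of a gene are numbered from the highest mean down. The brightness of a probe depends on its sequence, so levels were compared between arrays and not between probes. The study added a constant before taking logarithms, which compresses changes low on the scale, where 4.4% of all values lay under 5. In whole embryos fewer cells of a type and less RNA per cell cannot be told apart.

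The largest difference in the set was at irf10 (NM_212879), which was put in the set for its fall with the mimic on these arrays. The gene irf10 codes for a regulatory factor of birds and fish that has been described in zebrafish as a brake on interferon signalling. Probe 1 of irf10 read 6.70, 7.51 and 6.67 in MO-Tbx5a+miR-19a, 9.46, 9.70 and 9.87 in MO-Tbx5a and 6.92 and 7.44 in MO-Ct (log2 levels). All 3 MO-Tbx5a arrays lay far above the other 5, and MO-Tbx5a+miR-19a and MO-Ct overlapped. The difference was 2.50 (SE 0.24, 5.64-fold) for MO-Tbx5a against MO-Ct, -2.72 (SE 0.21, 6.57-fold lower) for MO-Tbx5a+miR-19a relative to MO-Tbx5a, and -0.22 (SE 0.24) for MO-Tbx5a+miR-19a relative to MO-Ct. The first comparison and the second share the MO-Tbx5a arrays.

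Probe 2 of irf10, listed under the same transcript, did not show this pattern. It read 6.28, 6.14 and 6.25 in MO-Tbx5a+miR-19a, 5.74, 6.18 and 6.81 in MO-Tbx5a and 6.03 and 6.12 in MO-Ct. The MO-Tbx5a arrays spread over the widest range on this probe and took in those of both other groups, while MO-Tbx5a+miR-19a lay just above MO-Ct. The differences were 0.17 (SE 0.23) for MO-Tbx5a against MO-Ct, -0.02 (SE 0.20) for MO-Tbx5a+miR-19a relative to MO-Tbx5a and 0.15 (SE 0.23) for MO-Tbx5a+miR-19a relative to MO-Ct. A statement on irf10 thus rests on which probe is read.

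**Figure D1:**
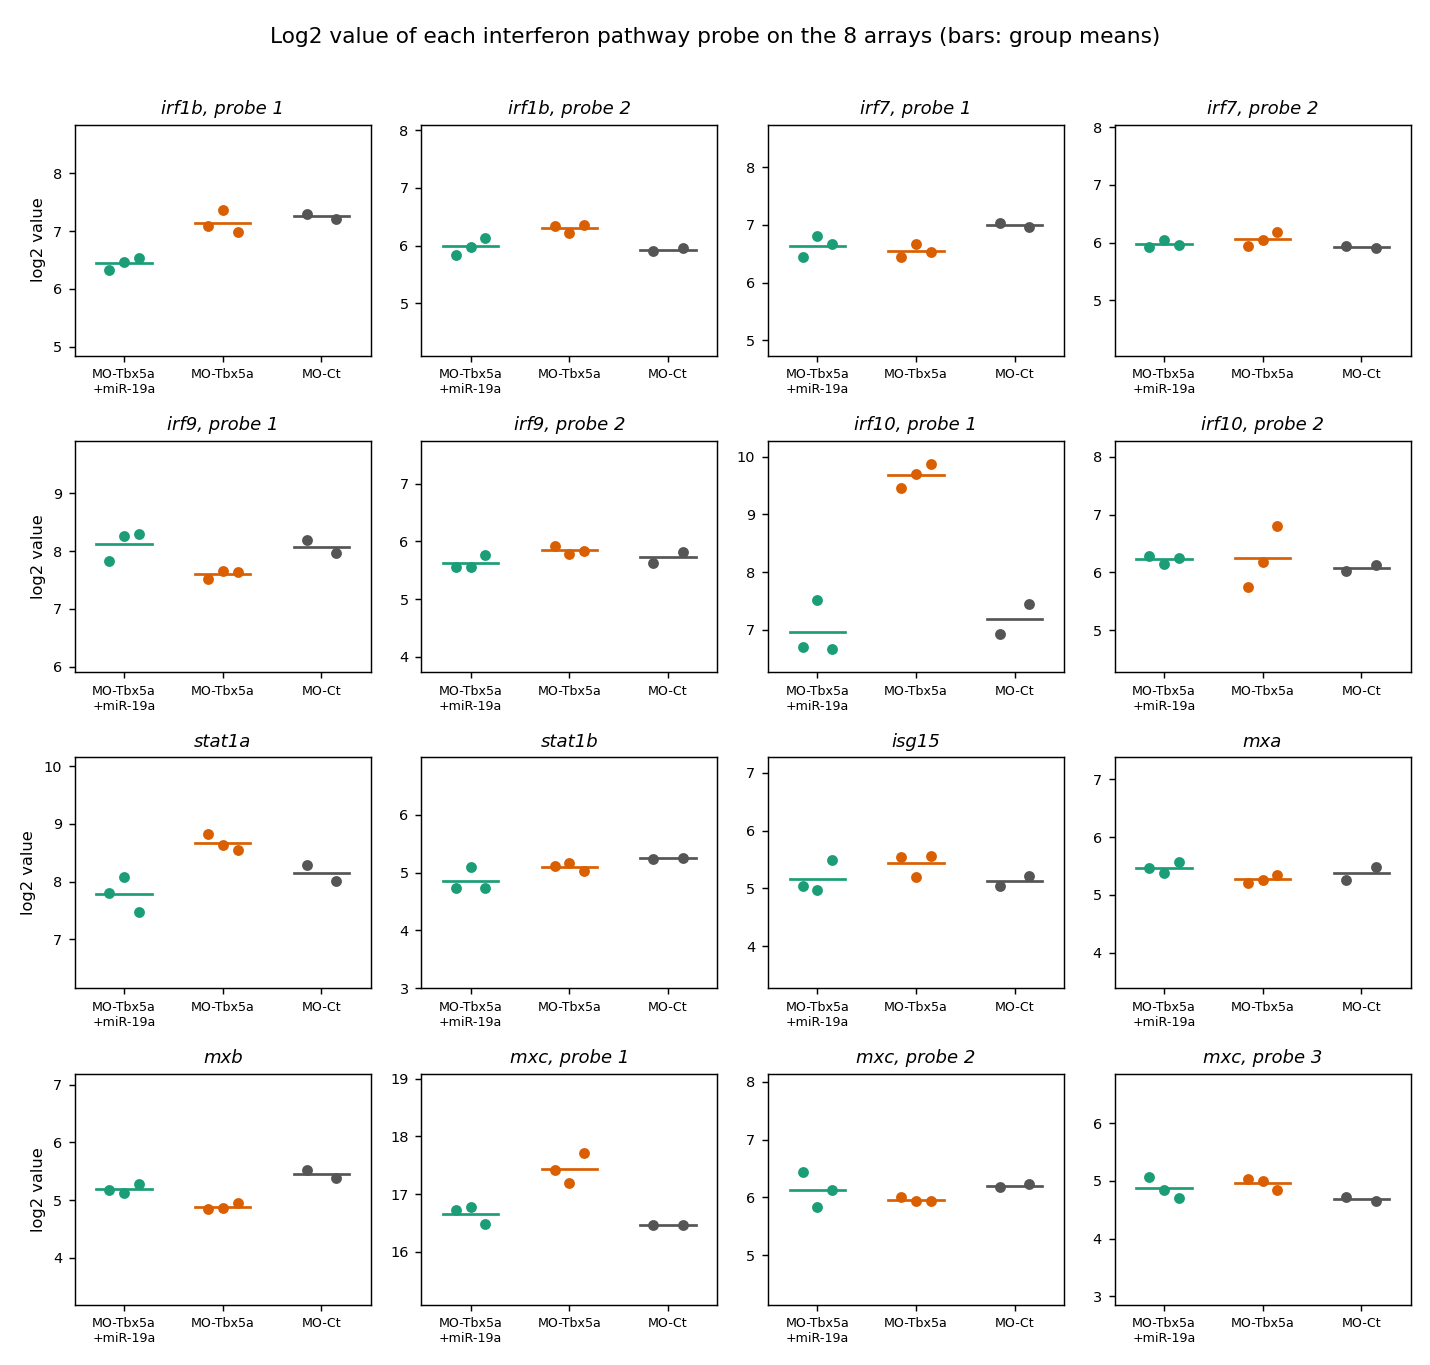
Log2 value (y axis, each panel spanning the same range of 4 units) of the 16 probes on the 8 arrays, with MO-Tbx5a+miR-19a, MO-Tbx5a and MO-Ct from left to right, a point per array and a bar at each group mean. Probe 1 of irf10 lies at 9.46 to 9.87 in MO-Tbx5a and at 6.67 to 7.51 on the other arrays, while most other probes move within 1 unit.

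Apart from irf10, MO-Tbx5a had 5 of the 14 probes called relative to MO-Ct, 2 higher and 3 lower. This was 35.7% of them, while 38.4% of all probes were called (18.7% higher and 19.6% lower). Their median difference was 0.01 and that of all probes 0.01. The groups did not overlap on 9 of the 14 probes, against 62.0% of all probes. Without MO-Ct replicate 1, MO-Ct replicate 2 or MO-Tbx5a replicate 1 the 5 calls became 3, 3 and 2. Over all probes the 15030 calls became 12021, 10143 and 13916 in the same order. With the mimic, relative to MO-Tbx5a, 4 probes were called, 1 higher and 3 lower, or 28.6% against 42.2% of all probes (20.2% higher and 21.9% lower), with median differences of -0.16 and -0.02. The groups did not overlap on 8 of the 14 probes, against 57.2% of all probes. Of the 14 probes, 1 was called for MO-Tbx5a+miR-19a relative to MO-Ct, lower, or 7.14% against 11.2% of all probes (5.24% higher and 5.95% lower), and 2 were called without MO-Tbx5a+miR-19a replicate 2. These groups did not overlap on 5 of the 14 probes, against 43.6% of all probes. The MO-Tbx5a and MO-Ct arrays each enter 2 comparisons, as do those of MO-Tbx5a+miR-19a.

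Among the regulatory factors irf1b (NM_205747), a zebrafish counterpart of mammalian IRF1, an activator of interferon-stimulated genes, was lowest with the mimic on probe 1. Probe 1 of irf1b read 6.33, 6.47 and 6.54 in MO-Tbx5a+miR-19a, 7.09, 7.36 and 6.98 in MO-Tbx5a and 7.30 and 7.21 in MO-Ct. The MO-Tbx5a+miR-19a arrays lay under all others, and the other groups overlapped. irf1b fell by 0.70 against MO-Tbx5a (SE 0.12, 1.62-fold, limma adjusted p = 0.000503) and by 0.81 against MO-Ct (SE 0.14, 1.75-fold, limma adjusted p = 0.00357), and differed by -0.11 (SE 0.14, limma adjusted p = 0.548) between MO-Tbx5a and MO-Ct. These calls of irf1b held without any single array.

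Probe 2 of irf1b read 5.84 to 6.14 in MO-Tbx5a+miR-19a, 6.21 to 6.35 in MO-Tbx5a and 5.90 to 5.96 in MO-Ct. Its differences of -0.31 for MO-Tbx5a+miR-19a relative to MO-Tbx5a (limma adjusted p = 0.0342) and 0.37 for MO-Tbx5a against MO-Ct (limma adjusted p = 0.0317) stayed under a fold of 1.3 and were not called. Against MO-Ct the MO-Tbx5a+miR-19a value of probe 2 differed by 0.06 (SE 0.13), so the fall against MO-Ct was seen on probe 1 only.

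irf9 (NM_205710), a DNA-binding partner of Stat proteins, moved on its probe 1 the other way from probe 1 of irf10. Probe 1 of irf9 read 7.82, 8.26 and 8.29 in MO-Tbx5a+miR-19a, 7.52, 7.65 and 7.64 in MO-Tbx5a and 8.19 and 7.96 in MO-Ct. MO-Tbx5a lay under both other groups, which overlapped. irf9 was lower by 0.47 in MO-Tbx5a against MO-Ct (-0.47, SE 0.15, limma adjusted p = 0.0263) and higher by 0.52 in MO-Tbx5a+miR-19a relative to MO-Tbx5a (SE 0.14, 1.43-fold, limma adjusted p = 0.00717). The call of irf9 against MO-Ct was lost without MO-Ct replicate 1 (and again without MO-Tbx5a replicate 1). Probe 2 of irf9 lay between 5.55 and 5.93 on all 8 arrays, with differences of 0.13, -0.23 and -0.10 and no call.

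irf7 (NM_200677), a main switch for interferon genes, was lower in MO-Tbx5a than in MO-Ct on probe 1. It read 6.44, 6.81 and 6.67 in MO-Tbx5a+miR-19a, 6.45, 6.66 and 6.53 in MO-Tbx5a and 7.03 and 6.96 in MO-Ct. Every array with the tbx5a morpholino lay under both MO-Ct arrays. The difference was -0.45 (SE 0.13, limma adjusted p = 0.0179) for MO-Tbx5a against MO-Ct, and this call was lost without either MO-Ct array or without MO-Tbx5a replicate 1. For MO-Tbx5a+miR-19a the differences were 0.09 (SE 0.12) against MO-Tbx5a and -0.35 (SE 0.13, limma adjusted p = 0.110) against MO-Ct, neither called. Probe 2 of irf7 lay between 5.90 and 6.19 on all arrays and was not called.

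stat1a (NM_131480), a transducer of interferon signals, followed the direction of irf10 probe 1 with smaller changes. It read 7.81, 8.07 and 7.47 in MO-Tbx5a+miR-19a, 8.83, 8.63 and 8.54 in MO-Tbx5a and 8.28 and 8.01 in MO-Ct. MO-Tbx5a lay above both other groups, which overlapped. stat1a rose by 0.52 in MO-Tbx5a against MO-Ct (SE 0.17, 1.44-fold, limma adjusted p = 0.0274) and fell by 0.88 in MO-Tbx5a+miR-19a relative to MO-Tbx5a (SE 0.15, 1.84-fold, limma adjusted p = 0.000459). The rise of stat1a was not called without MO-Ct replicate 2 or without MO-Tbx5a replicate 1. stat1a is on the study's list of predicted miR-19a targets, which was picked from these arrays by direction of change, so its directions in these comparisons are not independent evidence. Relative to MO-Ct, stat1a with the mimic differed by -0.36 (SE 0.17, limma adjusted p = 0.195).

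stat1b (NM_200091), also a signal transducer, lay low on the scale and read 4.73, 5.09 and 4.74 in MO-Tbx5a+miR-19a, 5.12, 5.17 and 5.02 in MO-Tbx5a and 5.23 and 5.26 in MO-Ct. Its differences were -0.14 (SE 0.13) for MO-Tbx5a against MO-Ct, -0.25 (SE 0.12, limma adjusted p = 0.104) for MO-Tbx5a+miR-19a relative to MO-Tbx5a and -0.39 (SE 0.13, limma adjusted p = 0.0819) for MO-Tbx5a+miR-19a relative to MO-Ct. None of these was called, though all 3 MO-Tbx5a+miR-19a arrays lay under both MO-Ct arrays.

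**Figure D2:**
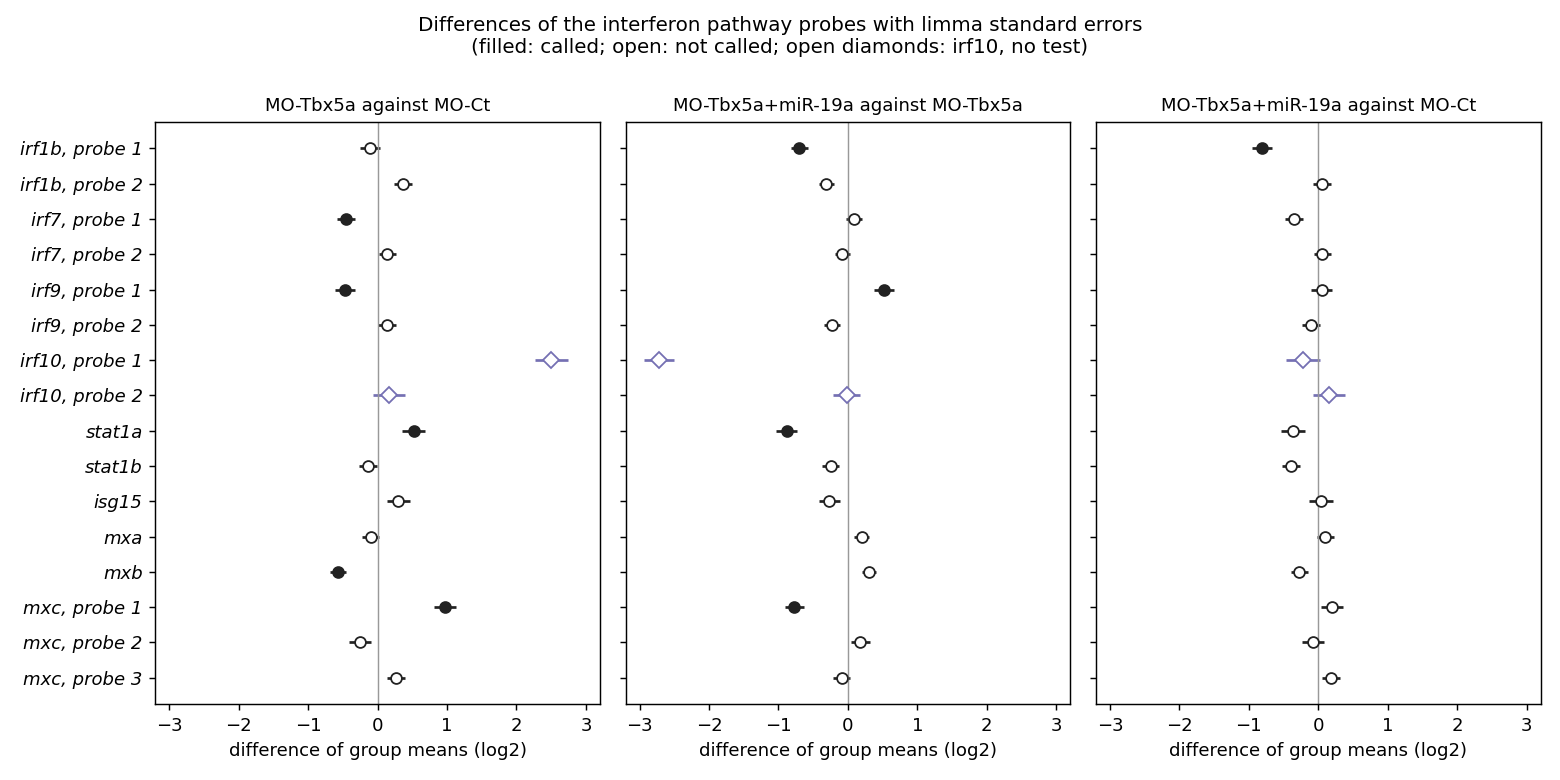
Difference of group means (log2, x axis) of each probe (rows) with its limma standard error in the 3 comparisons, with filled points for called probes, open points for probes not called and open diamonds for irf10, which was not tested. Probe 1 of irf10 stands at 2.50 and -2.72 in the left and middle panels, and probes of a gene often lie on opposite sides of 0 (irf9 at -0.47 and 0.13 on the left).

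Of the interferon-stimulated effectors, isg15 (NM_001204169), a ubiquitin-like protein that is coupled to other proteins, was not called in any comparison. It lay low on the scale, where changes are compressed. It read 5.05, 4.97 and 5.49 in MO-Tbx5a+miR-19a, 5.55, 5.20 and 5.57 in MO-Tbx5a and 5.05 and 5.22 in MO-Ct, with overlap between all groups. Its differences were 0.30 (SE 0.17, limma adjusted p = 0.173) for MO-Tbx5a against MO-Ct and -0.27 (SE 0.15, limma adjusted p = 0.161) for MO-Tbx5a+miR-19a relative to MO-Tbx5a.

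The mx genes code for dynamin-like GTPases that restrain viruses, and their members are alike in sequence, so probes can share transcripts and the value of a single mx gene is uncertain. mxb (NM_001128672) also lay low on the scale and read 5.17, 5.13 and 5.28 in MO-Tbx5a+miR-19a, 4.85, 4.86 and 4.95 in MO-Tbx5a and 5.53 and 5.39 in MO-Ct. The 3 groups did not overlap, with MO-Tbx5a lowest, and mxb differed by -0.57 for MO-Tbx5a against MO-Ct (SE 0.12, 1.49-fold, limma adjusted p = 0.00196). The difference of 0.31 for MO-Tbx5a+miR-19a relative to MO-Tbx5a (SE 0.10, limma adjusted p = 0.0274) was under a fold of 1.3 and was not called. mxa (NM_182942), low on the scale as well, lay between 5.20 and 5.56 on all arrays and was not called.

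The 3 probes of mxc (NM_001007284) did not move together. Probe 1 of mxc read 16.73, 16.78 and 16.48 in MO-Tbx5a+miR-19a, 17.41, 17.19 and 17.71 in MO-Tbx5a and 16.46 and 16.47 in MO-Ct, near the top of the scale, which ended at 19.4. All MO-Tbx5a arrays lay above the others. It rose by 0.97 in MO-Tbx5a against MO-Ct (SE 0.16, 1.96-fold, limma adjusted p = 0.000411) and fell by 0.77 in MO-Tbx5a+miR-19a relative to MO-Tbx5a (SE 0.14, 1.71-fold, limma adjusted p = 0.000611). Probe 2 of mxc lay between 5.84 and 6.44 and probe 3 between 4.65 and 5.06, with differences of -0.25 and 0.27 for MO-Tbx5a against MO-Ct and of 0.18 and -0.09 for MO-Tbx5a+miR-19a relative to MO-Tbx5a, none called. The call of mxc thus came from probe 1 alone. Its level stood far above those of the other probes of the same transcript, so whether probe 1 reads mxc is uncertain and was not tested.

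Probe 1 of irf10, the one with the larger range of group means, was set beside the other members as a description. Across the 8 arrays the points share the group structure, and irf10 was picked for its change on them. Pearson r was 0.92 with mxc probe 1, 0.87 with stat1a and 0.85 with irf1b probe 2. It was -0.84 with mxb, -0.81 with irf9 probe 1 and 0.18 with probe 2 of irf10. Other probes of these genes gave other values, with -0.65 for mxc probe 2, 0.43 for mxc probe 3, 0.67 for irf9 probe 2 and 0.51 for irf1b probe 1. The remaining members gave -0.42 (irf7 probe 1), 0.62 (irf7 probe 2), 0.53 (isg15), -0.65 (mxa) and 0.37 (stat1b). The share of all probes that reach such r was not counted. Among 11893 genes with a symbol (clone and LOC names left out), each read by its brightest probe, the 3 with the highest r were trmt44 (0.995), kcnk2b (0.994) and kif3a (0.993). Over 3, 3 and 2 arrays, trmt44 had means of 7.51 with the mimic (SD 0.12), 8.44 in MO-Tbx5a (SD 0.04) and 7.62 in MO-Ct (SD 0.13). For kcnk2b they were 6.03 with the mimic (SD 0.27), 7.98 in MO-Tbx5a (SD 0.13) and 6.38 in MO-Ct (SD 0.18), and for kif3a 9.40 (SD 0.19), 10.48 (SD 0.08) and 9.62 (SD 0.08) in the same order.

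The rest of the pathway was read from a list of ligands, receptors, sensors, transducers, inhibitors, other irf genes and interferon-stimulated genes. It gave 111 names (101 distinct current symbols), of which 57 genes (106 probes) had a named probe. Of 46 names of interferon-stimulated genes 16 had a named probe, and of 6 ligands 4. Genes without one included rsad2, isg20, rigi, ifih1, dhx58, ifnphi2 and ifng1, so the counts below do not cover these. In MO-Tbx5a against MO-Ct 34 probes (32.1%) were called, 10 higher and 24 lower, with a median difference of -0.09. Relative to MO-Tbx5a, MO-Tbx5a+miR-19a had 43 (40.6%) called, 23 higher and 20 lower, with a median of 0.01. Relative to MO-Ct it had 14 (13.2%) called, 4 higher and 10 lower, with a median of -0.06. Set against the shares over all probes (38.4%, 42.2% and 11.2%), the total called in the list stood near the background in each. The direction of the calls differed more in the comparisons with MO-Ct. In MO-Tbx5a against MO-Ct 29.4% of the called list probes were higher, against 48.8% of all called probes. For MO-Tbx5a+miR-19a these shares were 53.5% against 47.9% relative to MO-Tbx5a, and 28.6% against 46.8% relative to MO-Ct. Probes of a gene were counted separately, so these are not shares of independent genes. The shares also moved with the normalisation. With cyclic loess they were 55.6% against 51.0% relative to MO-Tbx5a and 35.7% against 54.9% relative to MO-Ct. This lean was not tested. Without MO-Ct replicate 2 the 34 and 14 calls became 18 and 3, and without MO-Ct replicate 1 the 14 became 4. Without MO-Tbx5a+miR-19a replicate 1 or 3 the 14 became 5 and 8. Calls over all probes fell in these settings as well. Without MO-Ct replicate 2 they went from 15030 to 10143 and from 4384 to 1042 in these 2 comparisons. The 4384 became 1525 without MO-Ct replicate 1, and 2387 and 2875 without MO-Tbx5a+miR-19a replicate 1 or 3.

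No ligand was called. The 5 probes of ifnphi1, ifnphi3, ifnphi4 and ifng1r, the interferons measured and named here after their values were seen, lay between 5.07 and 7.81, and limma gave 0 calls in the 3 comparisons, with 0, 1 and 2 probes at an unadjusted p under 0.05. Of all 39162 probes 38.4%, 42.2% and 11.2% were called in the same order. An unadjusted limma p under 0.05 was reached by 19202, 21691 and 10613 of them. Among interferon-stimulated genes MO-Tbx5a had 8 of 24 probes (33.3%, against 38.4% of all probes) called relative to MO-Ct, 2 higher and 6 lower, with a median of -0.10. Relative to MO-Tbx5a, MO-Tbx5a+miR-19a had 9 called (37.5%, against 42.2%), 7 higher and 2 lower, with a median of 0.24, and against MO-Ct 2 were called (8.33%, against 11.2%), both higher. Receptors had 3 higher and 1 lower of 11 probes (36.4%) in MO-Tbx5a against MO-Ct and 4 lower (36.4%) for MO-Tbx5a+miR-19a relative to MO-Tbx5a. Relative to MO-Ct, MO-Tbx5a+miR-19a had 3 receptor probes called (27.3%, against 11.2% of all probes), 1 higher and 2 lower. These were probes of crfb1 (-0.63) and of ifngr2, which went both ways (1.21 and -0.55). In the same 3 comparisons, sensors and adaptors (26 probes) had 34.6%, 42.3% and 19.2% called. Kinases, transducers and inhibitors (33 probes) had 33.3%, 48.5% and 12.1%, and other irf genes (7 probes) 28.6%, 42.9% and 0. In all 3 comparisons most probes of every role were not called.

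**Figure D3:**
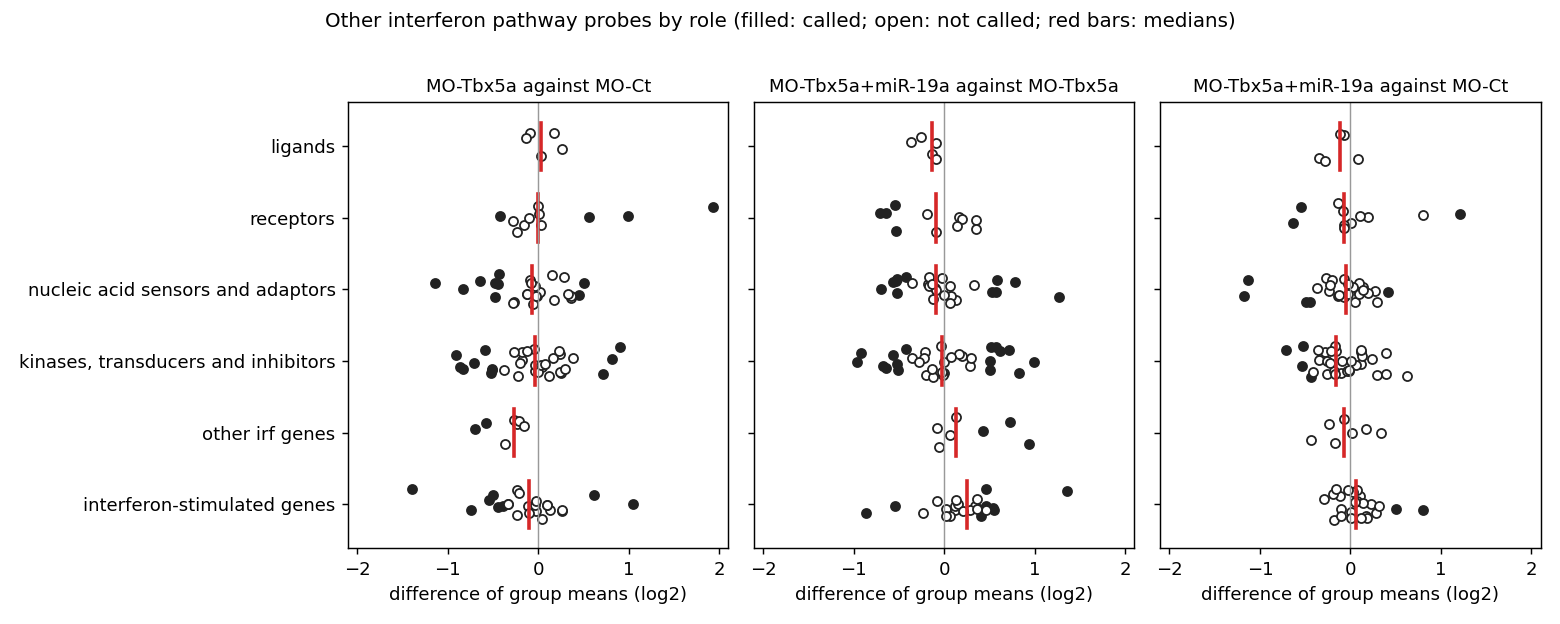
Difference of group means (log2, x axis) of the other 106 pathway probes by role (rows) in the 3 comparisons, with filled points for called probes, open points for probes not called and red bars at the median of each role. Points lie on both sides of 0 in nearly every row, and the medians lie between -0.27 and 0.24.

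With each gene read by its brightest probe, the largest rises in MO-Tbx5a against MO-Ct were in ifngr2, psme2 and crfb2. ifngr2, a subunit of an interferon gamma receptor, read 9.54, 9.29 and 9.42 in MO-Tbx5a+miR-19a, 10.30, 10.20 and 9.89 in MO-Tbx5a and 8.03 and 8.38 in MO-Ct. The 3 groups did not overlap, and ifngr2 rose by 1.93 (SE 0.15, 3.80-fold, limma adjusted p = 7.1e-06), yet its 3 probes ran from -0.24 to 1.93. psme2, which codes for a proteasome activator, rose by 1.05 (SE 0.13, limma adjusted p = 9.6e-05), with 8.53, 8.73 and 8.52 in MO-Tbx5a against 7.50 and 7.59 in MO-Ct. crfb2, a receptor chain for virus-induced interferons, rose by 0.99 (SE 0.27, limma adjusted p = 0.0116), which was lost without MO-Ct replicate 2 (adjusted p = 0.132). On the brightest probes the largest falls were in pias4a (-0.91, limma adjusted p = 0.000268), traf6 (-0.83, limma adjusted p = 0.000908) and psmb9a (-0.74, limma adjusted p = 0.00190), which code for an inhibitor of Stat signalling, a signal adaptor and an immunoproteasome subunit. The other probe of traf6 stood at 0.33, not called, and the 3 probes of pias4a ran from -0.91 to 0.24. Some dimmer probes fell further, as seen after their values were known: psmb10, another immunoproteasome subunit, stood at -1.39 on its dimmest probe (limma adjusted p = 2.15e-05) and at -0.03 and -0.10 on its others, and myd88 stood at -1.14 on its dimmer probe.

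With the mimic, relative to MO-Tbx5a, the largest falls on the brightest probes were in ptpn11b (-0.97, limma adjusted p = 8.1e-05), stat3 (-0.92, limma adjusted p = 0.00015) and psme2 (-0.87, limma adjusted p = 9.04e-05). The rises included pias4a (0.82, limma adjusted p = 0.000157) and myd88 (0.78, limma adjusted p = 0.000141). myd88 codes for an adaptor of Toll-like receptors. Both probes of myd88 moved in the same direction (0.78 to 1.27), whereas the probes of pias4a ran from -0.52 to 0.82, those of stat3 from -0.92 to 0.51, those of psmb10 from 0.13 to 1.36 and those of ptpn11b from -0.97 to 0.07.

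Among brightest probes that were called and had no overlap between groups, MO-Tbx5a+miR-19a differed most from MO-Ct at ifngr2, ifit11 and psme1 (higher) and at tlr3, crfb1 and ptpn6 (lower). The brightest probes of crfb2 (0.80, limma adjusted p = 0.0804) and stat2 (0.62, limma adjusted p = 0.136) rose more than psme1 but were not called. The other probes of stat2 stood at -0.35 and 0.06, not called. tlr3, which codes for an endosomal receptor of double-stranded RNA, read 6.17, 5.90 and 5.88 in MO-Tbx5a+miR-19a, 6.41, 6.29 and 6.84 in MO-Tbx5a and 7.14 and 7.17 in MO-Ct. The 3 groups did not overlap, and tlr3 fell by 1.17 (SE 0.16, 2.25-fold, limma adjusted p = 0.00125) against MO-Ct. Its 2 probes gave -1.17 and -1.13 in this comparison, -0.53 and -0.70 for MO-Tbx5a+miR-19a relative to MO-Tbx5a and -0.64 and -0.43 for MO-Tbx5a against MO-Ct, all called. Its call against MO-Ct held without any single array.

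ifngr2 was higher by 1.21 (SE 0.15, limma adjusted p = 0.000801) on its brightest probe and lower by 0.55 on another (-0.55, limma adjusted p = 0.0217). ifit11, an interferon-stimulated gene, differed by 0.80 (SE 0.20, limma adjusted p = 0.0266), with 5.58, 5.69 and 6.45 in MO-Tbx5a+miR-19a against 5.10 and 5.11 in MO-Ct. That call was lost without either MO-Ct array. psme1 (0.50, limma adjusted p = 0.0389), crfb1 (-0.63, limma adjusted p = 0.0305) and ptpn6 (-0.52, limma adjusted p = 0.0242) each lost their call without either MO-Ct array, and also without some array of MO-Tbx5a+miR-19a. The other probe of psme1 stood at 0.18 and that of crfb1 at -0.08, neither called, while the probes of ptpn6 ran from -0.71 to -0.17.

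Markers of myeloid cells, which take part in innate immunity, were read beside these genes. Of 31 listed genes 26 had a probe (47 probes). Their mean log2 level per array lay at 7.38 to 7.47 in MO-Tbx5a+miR-19a, 7.24 to 7.29 in MO-Tbx5a and 7.47 to 7.54 in MO-Ct. In MO-Tbx5a against MO-Ct 22 probes (46.8%, against 38.4% of all probes) were called, 5 higher and 17 lower. The largest falls, named after their values were seen, were in the granule gene mpx and in lyz, which codes for lysozyme. mpx stood at -1.34 on the called probe and -0.14 and -0.24 on the others, and lyz at -1.09. Without MO-Ct replicate 2 the 22 became 14, while calls over all probes went from 15030 to 10143. Relative to MO-Tbx5a, MO-Tbx5a+miR-19a had 19 (40.4%, against 42.2% of all probes) called, 13 higher and 6 lower. Relative to MO-Ct it had 5 (10.6%, against 11.2%) called, 2 higher and 3 lower, or 3 without either MO-Ct array. The 2 higher were both probes of nccrp1 (0.92 and 0.89). Over all probes the calls relative to MO-Ct went from 4384 to 1525 and 1042 without MO-Ct replicate 1 or 2. The myeloid factor spi1b was higher by 0.76 in MO-Tbx5a against MO-Ct on the called probe and differed by 0.06 on the other. Also called higher there were tnfa (0.90), cybb (0.80, other probe 0.14), ncf1 (0.73, other probe -0.08) and fcer1g (0.46). No probe of mpeg1.1, csf1ra or lcp1 was called in that comparison. These values move with the groups, as do those of the pathway, and their part in the results above was not tested.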

How the data were processed

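Total RNA of 8 pools of 50 embryos was labelled with Cy3 and hybridised to Agilent zebrafish arrays. The deposited log2 values were made by the authors with limma, by normexp background correction of median signals with an offset and cyclic loess between arrays, and ran from 4.06 to 19.4 over 39162 probes. No further normalisation was applied. The deposited scans of the 3 MO-Tbx5a+miR-19a samples hold, per the file headers, a background-subtracted intensity per spot and flags of other content (control type, background, saturation), set by the authors' Feature Extraction. Each scan correlated best with the value column of MO-Ct replicate 2 (r of 0.941 to 0.948, against 0.935 to 0.936 with its own), so the signals entered no comparison and served only to name probes. The labels give Feature Extraction 10.7 and, for MO-Tbx5a+miR-19a, 9.1.

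Accessions were matched without versions to RefSeq genes (assembly GRCz12tu, names only), which named 24716 probes (63.1%). Coordinates were not used here, and 3 probes of the set present only in the scans were not analysed here. Linear models with a mean per group were fitted with limma 3.58.1 in R 4.3.3 and tested on simulated data. Named pathway genes were, per comparison, the 3 largest rises and the 3 largest falls among called probes without overlap between groups, by the brightest probe, and 1 gene that this rule names is not reported here. Likeness to irf10 was Pearson r over the arrays. Members and lists were chosen with earlier results of these data known. Arrays carry no read depth, and their number limits the precision. The alternatives were other normalisations, priors, thresholds and filters, averaging of probes, a replicate block and leaving out each array.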

Additional observations from a re-analysis of the deposited data

How the results depend on the processing

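The 2 MO-Ct arrays carry each comparison with that group, levels near 5 are compressed, and the probes of a gene often differ. The counts below are of called probes for the 14 probes of the set, the other pathway probes, the myeloid markers and all probes, in that order. At a fold change above 2 they were 0, 4, 2 and 2888 for MO-Tbx5a against MO-Ct, 0, 2, 3 and 3293 for MO-Tbx5a+miR-19a relative to MO-Tbx5a, and 0, 3, 0 and 513 for MO-Tbx5a+miR-19a relative to MO-Ct, against 5, 34, 22 and 15030, 4, 43, 19 and 16512, and 1, 14, 5 and 4384 at a fold above 1.3. With limma treat they were 1, 8, 7 and 4849, then 2, 12, 5 and 6651, then 0, 3, 0 and 352. With probes averaged per gene, where genes and not probes are counted, they were 2, 17, 14 and 4446, then 2, 14, 12 and 4877, then 0, 4, 3 and 1534. These per-gene counts are out of 9, 57, 26 and 12792 genes. With dim probes left out 8 other pathway probes were called in MO-Tbx5a+miR-19a relative to MO-Ct, and with trend and robust eBayes 2 probes of the set. Under quantile normalisation the split of the set in MO-Tbx5a against MO-Ct was 3 higher and 3 lower, against 2 and 3.

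Replicate numbers are shared by the groups. Deviations from the group means correlated with r of -0.222 to 0.178 between arrays of the same number. The deviations of the 2 MO-Ct arrays mirror each other by construction. These r values therefore cannot settle whether arrays of the same number share more than the number. With the replicate block, calls in MO-Tbx5a+miR-19a relative to MO-Ct were 6 of the other pathway probes and 2162 of all probes, the counts of the set stayed at 5, 4 and 1, and irf10 probe 2 stood at 0.00 in that comparison, while irf9 probe 1 stood at -0.00 (0.05 without it) and isg15 at -0.08 (0.04 without it), neither called.

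Leaving out single arrays gave 2 to 6, 4 to 6 and 1 to 2 called probes of the set in the 3 comparisons (lowest without MO-Tbx5a replicate 1, and 3 without either MO-Ct array, in MO-Tbx5a against MO-Ct). For the other pathway probes it gave 18 to 35 in MO-Tbx5a against MO-Ct (lowest without MO-Ct replicate 2) and 3 to 17 in MO-Tbx5a+miR-19a relative to MO-Ct. For the myeloid markers it gave 14 to 22 and 3 to 6, and for all probes 10143 to 15115 and 1042 to 5545 in these comparisons (1042 without MO-Ct replicate 2). Signs turned for differences that were not called or, for irf10, not tested. irf10 probe 1 ran from -0.49 to 0.04 (without MO-Ct replicate 2) with the mimic relative to MO-Ct, and from 2.24 to 2.76 and from -2.99 to -2.57 in the other comparisons. irf10 probe 2 ran from -0.12 (without MO-Tbx5a replicate 3) to 0.42 for MO-Tbx5a against MO-Ct, and from -0.27 to 0.26 (without MO-Tbx5a replicate 3, with 0.02 where MO-Tbx5a+miR-19a replicate 2 was left out) with the mimic relative to MO-Tbx5a. Relative to MO-Ct, the values with the mimic ran from -0.01 (without MO-Ct replicate 1) to 0.21 for mxa, from -0.12 (without MO-Tbx5a+miR-19a replicate 3, with -0.05 where MO-Ct replicate 1 was left out) to 0.14 for isg15, from -0.07 (without MO-Ct replicate 2, and -0.02 and -0.04 without MO-Tbx5a+miR-19a replicate 2 or 3) to 0.20 for irf9 probe 1, from -0.23 to 0.07 (without MO-Tbx5a+miR-19a replicate 2) for mxc probe 2 and from -0.02 (without MO-Tbx5a+miR-19a replicate 3) to 0.13 for irf1b probe 2. For MO-Tbx5a against MO-Ct, mxa ran from -0.21 to 0.01 (without MO-Ct replicate 2). The cause of these changes was not tested.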
